A study of Mus musculus with 69 samples.

Results

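The genes analysed were 42 interferon-stimulated genes, chosen by name: the rows of the WT VSMC, KO VSMC and EC count tables whose Ensembl identifier belongs to one of the 42 symbols. Each symbol matched 1 row, so that 42 of the 56953 gene rows were taken, in all conditions and both genotypes. Interferons are secreted proteins that cells release on sensing foreign nucleic acid. Type I interferon binds a receptor at the cell surface, and a complex that holds STAT2 and IRF9 then binds the interferon-stimulated response element (ISRE) in promoters. Most vascular cells keep a low resting activity of this pathway, and the induced genes act against viruses, mark proteins with the ubiquitin-like ISG15 or feed back on the pathway itself.

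Poly(A) RNA-Seq was performed on cultured primary cells of male C57BL/6 mice, to ask how obesity-associated stressors act on vascular cells with and without the EGF receptor. WT VSMC were aortic smooth muscle cells of wild-type animals (sets 1 to 4), KO VSMC were aortic smooth muscle cells with the genotype EGFR-KOsmc (sets 5 to 8), in which a Cre under the SM22 promoter removes floxed Egfr in smooth muscle, and EC were endothelial cells of the heart labelled WT (sets 9 to 18). Each set came from 1 animal and was split over Control, HG + FFA (20 mM glucose with free fatty acids, 100 µM by the labels), AII + NA (30 nM angiotensin II with a catecholamine at 300 nM) and ALL (all of these together), each for 24 h. By the methods of the study, oleate and palmitate were each added at that concentration. The labels name epinephrine as the catecholamine and the methods of the study norepinephrine. WT VSMC had 4 libraries per condition and KO VSMC 4, except 3 for ALL. EC had 9 libraries for Control and for AII + NA and 10 for HG + FFA and for ALL, from 9 animals, as sets 17 and 18 shared an animal. EC sets 15 and 16 came from the animals that gave KO VSMC sets 7 and 6, and EC sets 9 and 10 from those of WT VSMC sets 1 and 2.

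The 69 libraries held 17166133 to 43240489 counted reads, and levels are given as FPM, the count of a gene scaled to a common library size by TMM over all libraries. Egfr, the targeted gene, stood at 226 to 499.8 FPM in WT VSMC, at 0.534 to 2.00 FPM in KO VSMC sets 6 to 8 and at 33.7 to 40.2 FPM in KO VSMC set 5, which therefore kept more Egfr RNA than the others of its genotype. Per library, WT VSMC held 278, 324, 428 and 499.8 FPM in Control and 226, 394, 446 and 475 FPM under HG + FFA. It was at 226, 319.9, 409.8 and 364 FPM under AII + NA and 254, 252, 410.3 and 381 FPM under ALL. KO VSMC sets 5 to 8, with sets 6 to 8 for ALL, held 40.2, 0.691, 0.534 and 1.75 FPM in Control and 33.7, 1.59, 1.07 and 2.0 FPM under HG + FFA. It was at 35.7, 1.32, 1.28 and 1.99 FPM under AII + NA and 1.39, 0.954 and 1.65 FPM under ALL. WT and KO did not overlap. In EC the lowest, median and highest level was 2.18, 38.5 and 144 FPM in Control and 3.11, 43 and 148 FPM under HG + FFA. It was at 2.16, 38.5 and 168 FPM under AII + NA and 3.01, 38.6 and 162 FPM under ALL. It lay at 2.16 to 12.2 FPM in sets 15 and 16, at 10.3 to 17.7 FPM in set 18 and at 27.7 to 167.9 FPM in the others. The summed level of 10 endothelial markers was 222.0 to 384 FPM in WT VSMC, 114 to 278 FPM in KO VSMC and 284 to 6312 FPM in EC. EC sets 9, 11 and 13, at 284 to 515 FPM, were close to WT VSMC in this sum. Results in EC are therefore also given without these sets. In WT VSMC, Eng made up most of the sum, at 213 to 382 FPM. The WT VSMC medians of Pecam1, Cdh5 and Emcn were 0.638, 0.574 and 0.209 FPM. Their lowest levels in EC were 15.55, 4.89 and 6.17 FPM, and their highest in WT VSMC 17.3, 24 and 5.92 FPM. Kdr and Cldn5 had a lowest level of 0 FPM in EC. The sum of 8 smooth muscle markers did not separate the cell types, at 373 FPM or more in WT VSMC, 705 to 3523 FPM in KO VSMC and 204 to 3938 FPM in EC, and that of 6 fibroblast markers was at least 811 FPM in every library.

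The ISRE is the sequence through which most of these genes answer to interferon. Its core was searched as GAAANNGAA on both strands in the 250 bases before the start of the canonical transcript of every protein-coding gene (GRCm39, the build of the count tables). It was found in 17 of the 42 promoters (40.5%) and in 7.54% of 21664 promoters of all protein-coding genes, and 25 of the 34 matches in these genes began within 100 bases of the start. The gamma-activated sequence, searched as TTCNNNGAA, was found in 6 of the 42 (14.3%) and in 7.72% of all. The promoters of 4 genes described below follow, 5′ to 3′ along the gene, with the core in capitals, in which overlapping copies run together: Isg15 (chr4:156285304-156285553, minus strand), Usp18 (chr6:121222607-121222856, plus strand), Ifit3 (chr19:34560649-34560898, plus strand) and Oasl2 (chr5:115034747-115034996, plus strand).
Isg15: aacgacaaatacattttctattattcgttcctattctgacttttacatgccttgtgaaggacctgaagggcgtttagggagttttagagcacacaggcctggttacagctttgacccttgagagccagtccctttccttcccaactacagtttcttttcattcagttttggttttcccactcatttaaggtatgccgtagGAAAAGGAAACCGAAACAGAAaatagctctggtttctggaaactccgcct
Usp18: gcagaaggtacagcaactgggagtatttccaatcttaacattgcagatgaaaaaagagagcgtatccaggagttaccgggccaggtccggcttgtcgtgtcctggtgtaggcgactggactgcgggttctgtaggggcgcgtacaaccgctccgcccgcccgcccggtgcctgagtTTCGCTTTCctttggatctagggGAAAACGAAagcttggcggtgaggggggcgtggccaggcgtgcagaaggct
Ifit3: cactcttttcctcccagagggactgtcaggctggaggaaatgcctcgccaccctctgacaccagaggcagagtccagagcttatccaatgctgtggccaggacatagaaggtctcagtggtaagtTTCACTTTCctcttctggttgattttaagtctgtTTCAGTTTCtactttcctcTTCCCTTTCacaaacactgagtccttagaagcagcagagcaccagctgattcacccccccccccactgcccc
Oasl2: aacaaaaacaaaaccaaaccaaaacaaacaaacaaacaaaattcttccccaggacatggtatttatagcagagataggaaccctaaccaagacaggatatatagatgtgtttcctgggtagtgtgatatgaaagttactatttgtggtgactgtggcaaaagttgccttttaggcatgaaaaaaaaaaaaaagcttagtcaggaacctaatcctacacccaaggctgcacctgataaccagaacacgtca
Isg15 carried 3 overlapping cores, Usp18 carried 2 on opposite strands, Ifit3 carried 3 that read on the reverse strand, and Oasl2 carried none in this window. The promoters of Ifit1, Ifit3b and Rtp4 also held 3 cores, that of Zbp1 held 4, those of Oas3, Bst2 and Irgm1 held 2, and those of Stat2, Oas2, Rsad2, Ifi27, Ifih1, Trim30a and Iigp1 held 1.

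In WT VSMC under Control conditions the genes were expressed over a wide range. Per kilobase of exon, the mean level was highest for Bst2, the membrane protein tetherin that holds budding virus at the cell (139 FPM per kb), followed by Ifit3 (88.1), Lgals3bp (76.5), Isg15 (57) and Ifi27 (54), and lowest for Oas3 (0.0462), Mx1 (0.293) and Oasl1 (0.411). Bst2, Ifit3, Ifi27, Lgals3bp and Isg15 were also the 5 highest per kilobase in KO VSMC and in EC. The count filter was passed by 41 genes in WT VSMC (Oas3 did not), 39 in KO VSMC (Oasl1, Oas3 and Mx1 did not) and 41 in EC (Mx1 did not). The animals differed at rest: the mean of log2(FPM + 0.1) over the 39 genes that passed in all 3 cell types was 5.11, 5.51, 4.56 and 4.30 in the Control libraries of WT VSMC sets 1 to 4.

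**Figure D1:**
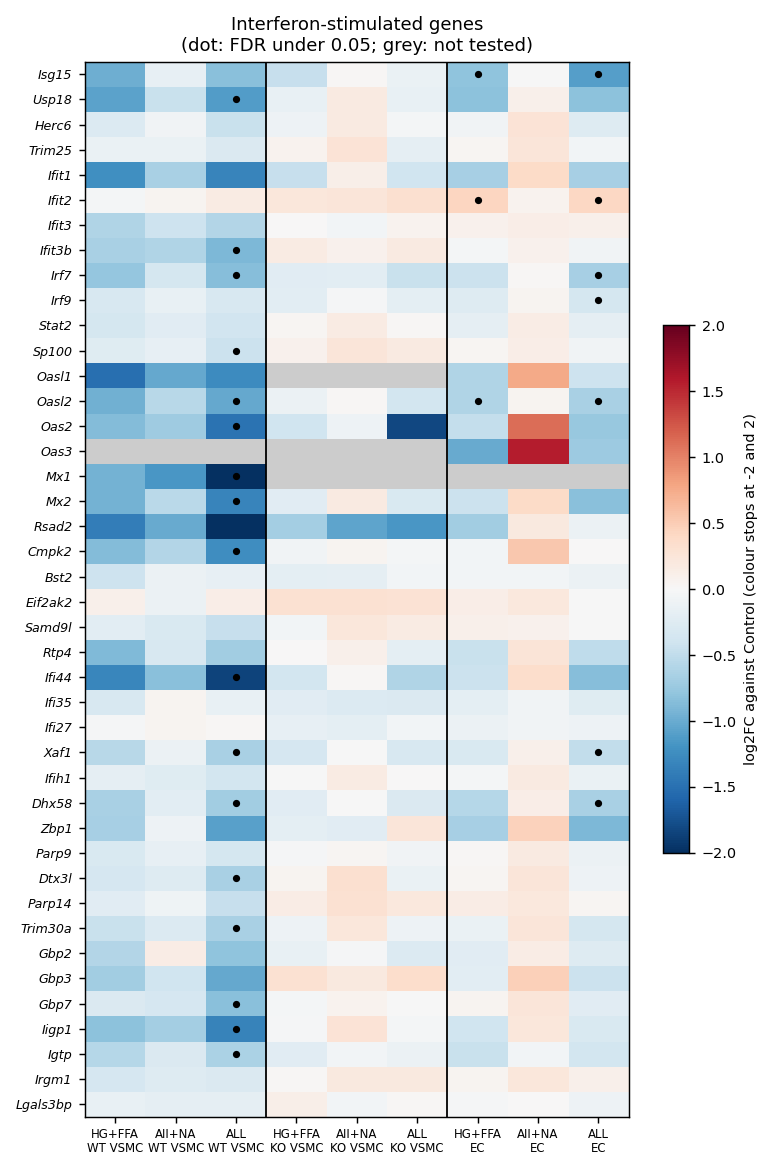
Each row is an interferon-stimulated gene and each column a stressor condition against Control within a cell type; colour is the log2FC, a dot marks an edgeR FDR under 0.05 and grey a gene that did not pass the count filter. WT VSMC columns are mostly blue, with 17 dots under ALL, KO VSMC columns are mostly pale with no dot, and EC show 3 dots under HG + FFA and 7 under ALL, of which Ifit2 is red.

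Many interferon-stimulated genes were lower in WT VSMC under ALL than in Control. Of the 41 genes tested, 17 fell and none rose at an edgeR FDR under 0.05, whereas of all 16905 genes tested 3.53% fell and 3.92% rose. The log2FC was below 0 in 38 of 41, with a median of -0.65 beside -0.01 over all genes, and 14 of the 17 also met the study's DEG rule (FDR under 0.05 in edgeR and DESeq2, |log2FC| of at least 0.64, 3 FPM in one group). Of all 16905 genes, 368 met this rule. DESeq2 called 19, all lower, the 17 among them, and 9.73% of all genes (4.38% lower). HG + FFA gave a median of -0.56 with 40 of 41 below 0, but none passed (0.538% of all genes did, 0.219% lower): 28 of 41 had an unadjusted p under 0.05 in edgeR, all lower, beside 11.2% of all genes, and DESeq2 called 5, with 1.74% of all genes (0.745% lower). Under AII + NA the median was -0.26 with 37 of 41 below 0, none passed (0.0532% of all genes did, 0.00592% lower and 0.0473% higher), 5 had an unadjusted p under 0.05, beside 9.42% of all genes, and DESeq2 called 0. Since these are bulk cultures, fewer cells with high levels and less RNA per cell cannot be told apart.

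Of the ISGylation genes, which attach and remove the ISG15 protein, 1 of 4 tested fell under ALL. Isg15, the ubiquitin-like modifier itself, was at 70.6, 72.3, 20.7 and 14.8 FPM in Control and 22.4, 33.9, 9.58 and 16.4 FPM under HG + FFA. It was at 74.3, 61.3, 12 and 18.3 FPM under AII + NA and 28.3, 31.7, 8.43 and 22.5 FPM under ALL, in the order of sets 1 to 4. The Control level was highest in sets 1 and 2 and was lower there under HG + FFA and ALL, while set 4 was lowest in Control. The log2FC under ALL was -0.84 ± 0.27 (SE, edgeR FDR = 0.0695) and did not pass, and 31.1% of its exon bases are shared with another annotated gene. Usp18, which removes ISG15 from proteins and also restrains the interferon receptor, was at 19.3, 24.3, 13.9 and 7.99 FPM in Control and 6.83, 13.2, 5.17 and 6.21 FPM under HG + FFA. It was at 18.7, 16.1, 7.39 and 6.54 FPM under AII + NA and 7.05, 8.59, 5.15 and 8.19 FPM under ALL. It fell under ALL, with a log2FC of -1.11 ± 0.24 (SE, edgeR FDR = 0.00969), and set 4 alone was not lower. Herc6, the ISG15 ligase of the mouse, had a log2FC of -0.45 and Trim25, a ubiquitin ligase that activates RIG-I, one of -0.29, and neither passed.

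The IFIT proteins bind viral RNA by its cap or triphosphate end, and 1 of the 4 genes fell under ALL. Ifit1 was at 129.9, 132, 63.2 and 16.2 FPM in Control and 27.1, 69.2, 18.2 and 23.5 FPM under HG + FFA. It was at 113, 97.2, 15.3 and 19.4 FPM under AII + NA and 35.1, 46.1, 13.8 and 27.9 FPM under ALL. Sets 1 and 2 were highest in Control, and the ratio of ALL to Control was lowest in set 3, but its log2FC of -1.32 ± 0.41 (SE, edgeR FDR = 0.0609) missed the threshold. Ifit3 was at 321, 406, 198 and 90.4 FPM in Control and 157, 236, 123 and 106 FPM under HG + FFA. It was at 279.7, 242, 108 and 105 FPM under AII + NA and 166, 214, 114 and 124 FPM under ALL. Its log2FC under ALL was -0.58 ± 0.19 (SE, edgeR FDR = 0.0799) and did not pass. Its near copy Ifit3b fell by 0.90 on the log2 scale (edgeR FDR = 0.018). The canonical transcripts of both are 97.5% identical over 2042 aligned bases and reads with several alignments were counted, so that their separate values are uncertain. Ifit2 was the exception of the family, at 40.5, 42.6, 34.6 and 33.7 FPM in Control and 36.1, 48.8, 33.2 and 31 FPM under HG + FFA. It was at 42.2, 42.9, 29.3 and 42.6 FPM under AII + NA and 44.3, 49, 32.5 and 45.7 FPM under ALL. It had a log2FC of 0.17 ± 0.10 (SE, edgeR FDR = 0.369) under ALL.

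**Figure D2:**
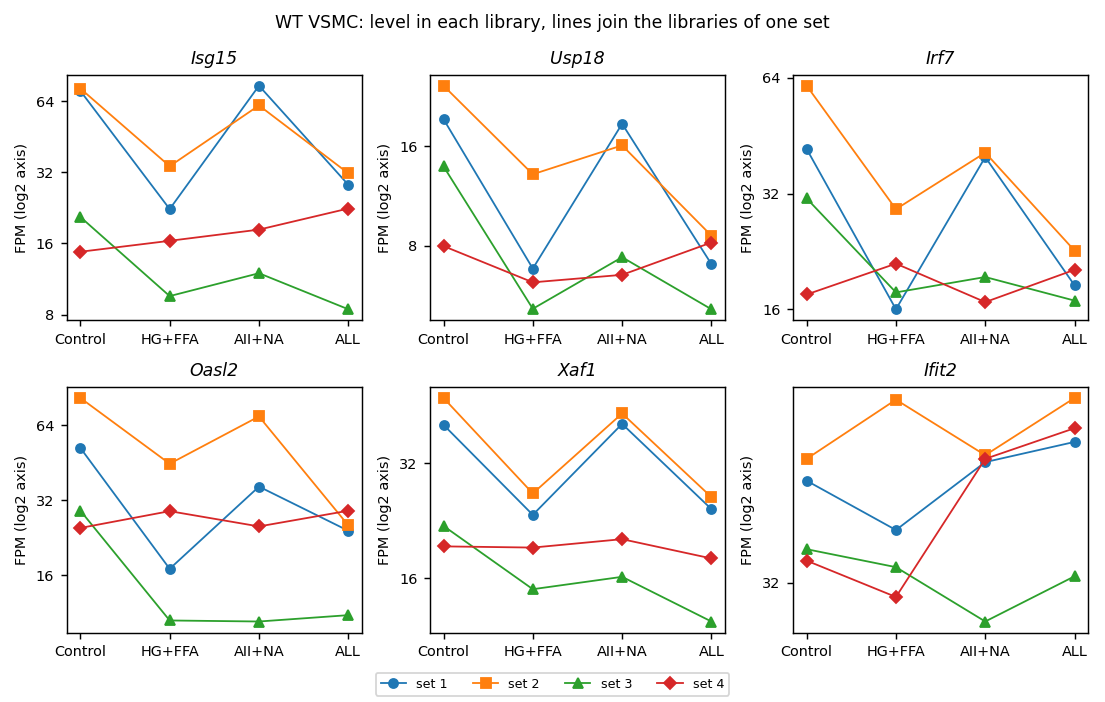
The FPM of 6 interferon-stimulated genes in each WT VSMC library (log2 axis) is plotted by condition, and lines join the libraries of a set. In Isg15, Usp18, Irf7, Oasl2 and Xaf1, the Control libraries of sets 1 and 2 lie above those of sets 3 and 4, and sets 1 to 3 are lower under HG + FFA and ALL than in Control, while Ifit2 keeps between 29.3 and 49.0 FPM.

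Of the transcription factors, 2 of 4 fell under ALL. Irf7, which amplifies the production of interferon, was at 41.8, 61.1, 31.1 and 17.5 FPM in Control and 16, 29.2, 17.7 and 21 FPM under HG + FFA. It was at 39.8, 40.9, 19.4 and 16.7 FPM under AII + NA and 18.5, 22.8, 16.9 and 20.3 FPM under ALL. The 4 ALL libraries lay closer together than the Control libraries, and its log2FC was -0.85 ± 0.23 (SE, edgeR FDR = 0.0328). Irf9, the DNA-binding part of the interferon-activated complex, was at 54.2, 82.6, 51.9 and 46.2 FPM in Control and 38.6, 55.3, 42.9 and 49.2 FPM under HG + FFA. It was at 53.5, 68, 44 and 44.8 FPM under AII + NA and 40.9, 53.6, 42.2 and 49.5 FPM under ALL. Stat2, its partner, was at 67.9, 122, 86.4 and 73 FPM in Control and 37.3, 91, 73.2 and 75.6 FPM under HG + FFA. It was at 62.1, 108, 61.3 and 64.2 FPM under AII + NA and 55.5, 70.5, 64.7 and 71.6 FPM under ALL. Neither passed, with log2FC of -0.31 (edgeR FDR = 0.0829) and -0.38 (edgeR FDR = 0.13), and the conditions overlapped in both. Sp100, a protein of nuclear bodies, fell, with a log2FC of -0.43 ± 0.12 (SE, edgeR FDR = 0.0402).

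OAS enzymes sense double-stranded RNA and start RNA decay through RNase L, and 2 of the 3 genes of the OAS family tested fell. Oasl2, an OAS-like protein, was at 51.9, 82.3, 29.1 and 24.8 FPM in Control and 17, 44.8, 10.5 and 28.9 FPM under HG + FFA. It was at 36.3, 69.4, 10.4 and 25.1 FPM under AII + NA and 24.1, 25.4, 11.1 and 29 FPM under ALL. Its log2FC under ALL was -1.02 ± 0.27 (SE, edgeR FDR = 0.0329), with set 4 the only one that was not lower. Oas2 was low throughout, at 6.01, 5.21, 4.74 and 3.33 FPM in Control and 1.89, 2.62, 2.15 and 3.67 FPM under HG + FFA. It was at 3.79, 4.75, 2.37 and 1.13 FPM under AII + NA and 2.53, 1.52, 0.829 and 2.19 FPM under ALL. All sets were lower under ALL, and its log2FC was -1.48 ± 0.35 (SE, edgeR FDR = 0.0175). Oasl1 had a log2FC of -1.26 (edgeR FDR = 0.197) and Oas3 was counted at most 18 times in a WT VSMC library.

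Among the Mx GTPases and other antiviral effectors, 5 of 12 fell. Mx2, a gene of the Mx family, was at 7.27, 9.95, 4.49 and 2.17 FPM in Control and 2.57, 6.75, 1.37 and 2.41 FPM under HG + FFA. It was at 5.55, 6.72, 1.92 and 2.53 FPM under AII + NA and 2.31, 3.07, 1.23 and 2.65 FPM under ALL. It was lower under ALL in sets 1 to 3, and its log2FC was -1.32 ± 0.29 (SE, edgeR FDR = 0.0119). Its paralog Mx1 passed as well but rests on few reads, 39, 47, 23 and 15 in the Control libraries and 1, 1, 1 and 3 under ALL. The canonical transcripts of Mx1 and Mx2 are 94.1% identical over 725 aligned bases. Reads with several alignments were counted, so that the 2 genes may share reads. Ifi44, an interferon-induced cytoplasmic protein, was at 8.08, 13.3, 2.53 and 2.38 FPM in Control and 1.18, 5.0, 0.782 and 3.47 FPM under HG + FFA. It was at 5.17, 10.4, 0.384 and 1.44 FPM under AII + NA and 1.72, 2.05, 0.54 and 2.56 FPM under ALL. Set 4 alone was not lower under ALL, and its log2FC was -1.85 ± 0.50 (SE, edgeR FDR = 0.0326). Xaf1, which antagonizes an inhibitor of apoptosis, was at 40.3, 47.4, 21.9 and 19.4 FPM in Control and 23.5, 26.7, 15 and 19.3 FPM under HG + FFA. It was at 40.6, 43.2, 16.2 and 20.3 FPM under AII + NA and 24.3, 26.1, 12.3 and 18.1 FPM under ALL. It was lower in all 4 sets under ALL and had the smallest FDR of these genes, with a log2FC of -0.65 ± 0.13 (SE, edgeR FDR = 0.00705). Cmpk2, a mitochondrial nucleotide kinase next to Rsad2, fell, with a log2FC of -1.25 ± 0.27 (SE, edgeR FDR = 0.0111), and Rsad2 (viperin) had -1.99 (edgeR FDR = 0.0723). The more abundant effectors were not called. Bst2 was at 212, 233, 124 and 108 FPM in Control and 153, 116, 95 and 123 FPM under HG + FFA. It was at 207, 191, 103 and 119 FPM under AII + NA and 155, 187, 99.1 and 151 FPM under ALL. Ifi27, a mitochondrial protein, was at 313, 247, 217 and 186 FPM in Control and 318, 194, 218 and 215 FPM under HG + FFA. It was at 320.1, 236, 227 and 211 FPM under AII + NA and 272, 252, 196 and 241 FPM under ALL. Their log2FC under ALL were -0.16 and 0.02 and did not pass. Rtp4 was at 29, 36.7, 13.1 and 8.57 FPM in Control and 9.99, 18.8, 6.26 and 10.7 FPM under HG + FFA. It was at 25.1, 36.2, 5.66 and 8.85 FPM under AII + NA and 12.4, 14.8, 6.2 and 16.2 FPM under ALL. Its log2FC of -0.70 (edgeR FDR = 0.203) did not pass, and 29.1% of its exon bases lie in other annotated genes. Eif2ak2 (PKR, the kinase that stops translation on double-stranded RNA), Samd9l and Ifi35 had log2FC of 0.14, -0.46 and -0.15 and did not pass.

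Of the sensors, 1 of 3 fell. Dhx58 (LGP2), a regulator of RIG-I and MDA5, was at 16.8, 22.1, 11.7 and 11.2 FPM in Control and 8.53, 12.6, 6.67 and 11.3 FPM under HG + FFA. It was at 16, 19.8, 8.45 and 9.79 FPM under AII + NA and 9.48, 9.26, 8.07 and 10.2 FPM under ALL. All 4 sets were lower under ALL, and its log2FC was -0.69 ± 0.18 (SE, edgeR FDR = 0.0247). Ifih1 (MDA5), a sensor of long double-stranded RNA, was at 25.6, 33, 14.4 and 20.5 FPM in Control and 18.3, 25.5, 13.8 and 22.9 FPM under HG + FFA. It was at 24.5, 31.1, 10 and 15.5 FPM under AII + NA and 19.6, 20.7, 11.6 and 19.4 FPM under ALL. It was lower in all 4 sets too, but its log2FC of -0.36 (edgeR FDR = 0.137) did not pass, and Zbp1, a sensor of Z-form nucleic acid, had -1.09 (edgeR FDR = 0.0526). Of the PARP and TRIM regulators, Dtx3l and Trim30a fell, with log2FC of -0.64 (edgeR FDR = 0.0184) and -0.65 (edgeR FDR = 0.0234). Parp9, the partner of Dtx3l, had -0.35 (edgeR FDR = 0.131). Parp14, an ADP-ribosyltransferase, was at 21.5, 41.4, 21.5 and 27.2 FPM in Control and 15.4, 31.2, 18.1 and 30.9 FPM under HG + FFA. It was at 21.8, 49.4, 13.1 and 25.4 FPM under AII + NA and 16.4, 21.1, 15.4 and 26.8 FPM under ALL. Its log2FC was -0.46 (edgeR FDR = 0.142), and neither passed.

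The interferon-inducible GTPases attack the vacuoles of intracellular microbes, and 3 of 6 fell. Iigp1 was at 13.4, 31.6, 7.51 and 11.1 FPM in Control and 3.77, 19.6, 2.65 and 14.1 FPM under HG + FFA. It was at 12.1, 23.4, 2.11 and 6.35 FPM under AII + NA and 4.58, 8.37, 2.7 and 9.12 FPM under ALL. Set 2 was highest in every condition except ALL, where set 4 was, and the log2FC was -1.33 ± 0.36 (SE, edgeR FDR = 0.0309). Igtp was at 20.9, 26.1, 16.4 and 13.3 FPM in Control and 10.5, 17, 9.86 and 14.4 FPM under HG + FFA. It was at 19, 22.3, 10.3 and 12 FPM under AII + NA and 12, 12.3, 10.1 and 14.3 FPM under ALL. Set 4 alone was not lower under ALL, and the log2FC was -0.63 ± 0.18 (SE, edgeR FDR = 0.0401). Gbp7 fell, with a log2FC of -0.84 (edgeR FDR = 0.021). Gbp3 was at 34.4, 48.7, 11.4 and 11.6 FPM in Control and 13.1, 23.2, 7.46 and 14.3 FPM under HG + FFA. It was at 31, 49.3, 3.39 and 9.0 FPM under AII + NA and 16.7, 14.1, 5.47 and 10.8 FPM under ALL. It was lower in all 4 sets under ALL, but its log2FC of -1.02 (edgeR FDR = 0.0717) did not pass, nor did those of Gbp2 (-0.81) and Irgm1 (-0.29). Lgals3bp, a secreted glycoprotein, was at 451, 474, 276 and 410.2 FPM in Control and 324, 402, 268 and 453 FPM under HG + FFA. It was at 347, 402, 266 and 393 FPM under AII + NA and 378, 371, 243 and 432 FPM under ALL. Its log2FC of -0.18 (edgeR FDR = 0.244) did not pass.

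The animals differed in this, with lower levels in WT VSMC sets 1 to 3 and not in set 4. Over the 41 genes, the median log2 ratio of a library to its set's own Control was -0.77, -1.19, -0.69 and 0.04 under ALL in sets 1 to 4, where 39, 39, 40 and 20 genes lay below 0. Under HG + FFA it was -0.97, -0.58, -0.45 and 0.14, and under AII + NA -0.07, -0.16, -0.67 and -0.14, while the median over all genes tested stayed between -0.03 and 0.00 in these 12 libraries. In Control the sets spread from 4.30 to 5.51 in mean log2(FPM + 0.1), whereas under ALL sets 1, 2 and 4 stood at 4.31, 4.40 and 4.37, and set 3 at 3.71. Set 4, the lowest in Control, was not lower under ALL. The number of genes called under ALL was 10 without set 1, 2 without set 2, 0 without set 3 and 22 without set 4, so that the call rests on sets 2 and 3 in particular, and it was 0 in a fit without the set as a block. Under HG + FFA, 12 genes were called without set 4. Leaving out a set also changes the calls over all genes, whose shares in these fits are not given here. Whether these changes are particular to the interferon-stimulated genes was not tested.

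**Figure D3:**
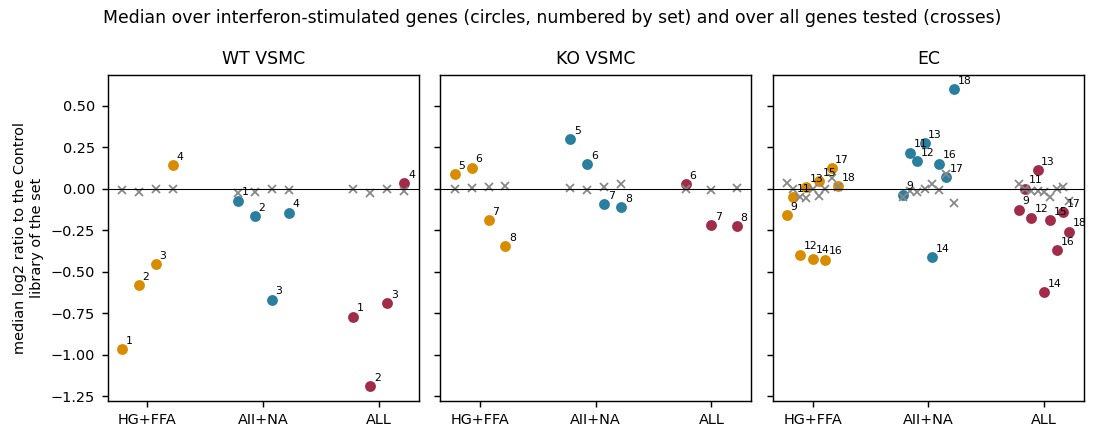
Circles, numbered by set, give the median log2 ratio of the interferon-stimulated genes to the set's own Control for each condition and cell type, and crosses the median over all genes tested. Circles of WT VSMC sets 1 to 3 reach -1.19 under ALL with set 4 at 0.04, those of KO VSMC lie between -0.34 and 0.30, and those of EC under AII + NA are above 0 except in sets 9 and 14.

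Markers of other cells moved with these levels in some sets and not in others. The summed level of 12 leukocyte markers in WT VSMC sets 1 to 4 was 290.8, 170.2, 37.1 and 99.6 FPM in Control and 178.9, 112, 45.6 and 104 FPM under ALL, so that it was lower in sets 1 and 2 and not in sets 3 and 4. Of these, Lyz2 had the highest median (69.3 FPM over all WT VSMC libraries), Ptprc reached at most 0.880 FPM and Cd3e was at 0. The sum of 10 endothelial markers in sets 1 to 4 was 302, 353, 315 and 222 FPM in Control. This sum stood at 356, 336, 367 and 256 FPM under ALL, higher in sets 1, 3 and 4. That of 6 fibroblast markers was 8355, 11067, 6484 and 19496 FPM in Control. Under ALL the fibroblast sum was 6946, 8292, 6870 and 11832 FPM, lower in sets 1, 2 and 4. Under ALL, 2 of the 10 leukocyte markers tested fell (C1qb and Aif1), as did 2 of 10 endothelial markers (Cdh5 and Emcn) and 1 of 6 fibroblast markers (Col3a1). Of 8 smooth muscle markers 2 rose (Mylk and Tagln), and of all genes 3.53% fell and 3.92% rose. Tagln was at 1.66 to 6.56 FPM in WT VSMC, and 66.7% of its exon bases are shared with other annotated genes. Cdh5, Emcn and Aif1 were low, with medians of 0.574, 0.209 and 0.188 FPM over all WT VSMC libraries. The part of these markers in the result was not tested.

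The stressor conditions of WT VSMC were also compared with each other. Interferon-stimulated genes under ALL had a median log2FC of -0.10 against HG + FFA, with 30 of 41 below 0, and of -0.38 against AII + NA, with 39 of 41 below 0. In edgeR 0 were called in both (0.0414% and 1.36% of all genes were, 0.0118% and 0.657% lower, 0.0296% and 0.704% higher). An unadjusted p under 0.05 in edgeR was found for 2 and 14, all lower under ALL, beside 10.8% and 14.3% of all genes. DESeq2 called 0 and 1, beside 224 and 541 of all 16905 genes. HG + FFA against AII + NA gave a median of -0.18 with 0 calls (2.45% of all genes, 1.22% lower). In edgeR 6 genes had an unadjusted p under 0.05, beside 18.4% of all genes. DESeq2 called 1, beside 883 of all 16905 genes. The departure of ALL from the sum of both effects on the log2 scale had a median of 0.15, no gene was called in edgeR or DESeq2 (0.0% of all genes were in edgeR), and 0 had an unadjusted p under 0.05.

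In KO VSMC none of the 39 genes tested was called under any condition, in edgeR or DESeq2, and the medians were near 0. They were -0.10 under HG + FFA, 0.07 under AII + NA and -0.08 under ALL, beside 0.00, 0.01 and -0.00 over all 17538 genes, of which 0.439%, 0.0% and 0.399% were called, 0.336% higher under HG + FFA. An unadjusted p under 0.05 in edgeR was found for 1 gene under HG + FFA, lower, for 5 under AII + NA, all higher, and for 3 under ALL, 1 of them lower, beside 12.4%, 9.76% and 10.5% of all genes. Isg15 in sets 5 to 8, with sets 6 to 8 for ALL, was at 22.8, 7.17, 8.01 and 16.4 FPM in Control and 32.1, 6.89, 4.47 and 5.57 FPM under HG + FFA. It was at 36.4, 9.11, 7.17 and 10.4 FPM under AII + NA and 7.82, 5.52 and 11.7 FPM under ALL. Set 5 had the highest level in each condition it was measured in, and set 8 was lower under all stressors than in Control. Usp18 was at 11, 3.0, 2.73 and 5.95 FPM in Control and 11.5, 4.05, 1.75 and 4.25 FPM under HG + FFA. It was at 14.5, 5.35, 2.21 and 4.99 FPM under AII + NA and 3.23, 1.95 and 5.13 FPM under ALL. Ifit1 was at 24.8, 5.91, 10.2 and 28.7 FPM in Control and 26.5, 9.2, 4.76 and 11.5 FPM under HG + FFA. It was at 42.2, 10.5, 10.3 and 15.3 FPM under AII + NA and 7.29, 7.67 and 12.6 FPM under ALL. Neither showed a common direction over the sets. Oasl2 was at 25.7, 3.98, 8.91 and 11.6 FPM in Control and 27.3, 5.93, 5.8 and 8.17 FPM under HG + FFA. It was at 35.4, 4.49, 6.99 and 10.1 FPM under AII + NA and 4.26, 5.48 and 7.39 FPM under ALL, here with set 5 above the rest.

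Set 5 was the highest KO VSMC set for most of the other named genes. Irf7 was at 17.9, 9.59, 11.7 and 15.8 FPM in Control and 23.5, 10.7, 7.58 and 9.15 FPM under HG + FFA. It was at 23.5, 11.2, 6.63 and 10.6 FPM under AII + NA and 9.96, 7.43 and 7.47 FPM under ALL. Irf9 was at 54.9, 39.4, 38 and 50.1 FPM in Control and 49.5, 39.4, 25.9 and 46.5 FPM under HG + FFA. It was at 58.9, 44.9, 31.1 and 47.7 FPM under AII + NA and 40.2, 26.4 and 45.8 FPM under ALL. Stat2 was at 63.3, 34.7, 29.1 and 35.7 FPM in Control and 65.4, 36.3, 28.1 and 38.5 FPM under HG + FFA. It was at 71.8, 42.6, 29.6 and 40.7 FPM under AII + NA and 39.7, 25 and 37.7 FPM under ALL. Set 5 was highest for these factors, and no condition stood apart from Control. Oas2 was at 3.72, 0.374, 0.801 and 0.425 FPM in Control and 4.01, 0.116, 0.583 and 0.339 FPM under HG + FFA. It was at 5.39, 0.348, 0.531 and 0.234 FPM under AII + NA and 0.132, 0.159 and 0.0766 FPM under ALL. Mx2 was at 2.75, 1.18, 1.1 and 3.73 FPM in Control and 3.31, 1.19, 1.1 and 1.77 FPM under HG + FFA. It was at 5.09, 1.39, 1.19 and 2.61 FPM under AII + NA and 0.66, 1.63 and 1.76 FPM under ALL. Ifi44 was at 3.44, 0.893, 0.734 and 0.567 FPM in Control and 3.41, 0.81, 0.421 and 0.301 FPM under HG + FFA. It was at 5.49, 0.591, 0.442 and 0.662 FPM under AII + NA and 0.462, 0.516 and 0.306 FPM under ALL. Outside set 5, Oas2 and Ifi44 stayed below 1 FPM, and Mx2 in Control was highest in set 8. Rtp4 was at 10.4, 3.05, 4.54 and 5.95 FPM in Control and 15.6, 3.79, 3.4 and 4.22 FPM under HG + FFA. It was at 18.1, 3.55, 3.36 and 4.99 FPM under AII + NA and 2.97, 3.1 and 4.44 FPM under ALL. Xaf1 was at 18, 12.5, 13.3 and 22 FPM in Control and 19.8, 12.2, 7.45 and 13.7 FPM under HG + FFA. It was at 21.6, 12.7, 11.8 and 20.4 FPM under AII + NA and 11.4, 8.9 and 16 FPM under ALL. Dhx58 was at 10.7, 4.81, 4.87 and 4.63 FPM in Control and 10.4, 5.56, 2.59 and 4.1 FPM under HG + FFA. It was at 12.6, 6.12, 3.19 and 4.67 FPM under AII + NA and 5.05, 2.7 and 3.94 FPM under ALL. The Xaf1 level was lower than in Control in sets 6 to 8 under both HG + FFA and ALL. Of the genes analysed, 8 were lower under ALL in all 3 sets, Xaf1, Oas2, Ifi44 and Rtp4 among them, and 4 in none. Bst2 was at 87.1, 50.5, 85 and 128 FPM in Control and 139, 49.1, 61.1 and 71 FPM under HG + FFA. It was at 119.8, 57.4, 59.3 and 77.8 FPM under AII + NA and 55.5, 79.3 and 84.6 FPM under ALL. Ifi27 was at 186, 169.7, 201 and 296 FPM in Control and 249.6, 165, 152 and 198 FPM under HG + FFA. It was at 219, 164, 166 and 195 FPM under AII + NA and 178, 179.9 and 232 FPM under ALL. Lgals3bp was at 338, 106, 151 and 143 FPM in Control and 417, 132, 134 and 149 FPM under HG + FFA. It was at 380.3, 119, 132 and 111 FPM under AII + NA and 129, 141 and 119 FPM under ALL. Bst2 and Ifi27 in Control were highest in set 8, and Lgals3bp separated set 5 from the others in each condition it was measured in. Ifih1 was at 16.1, 8.99, 6.14 and 9.59 FPM in Control and 14.5, 8.25, 7.52 and 9.18 FPM under HG + FFA. It was at 19.9, 10.3, 5.71 and 10.8 FPM under AII + NA and 7.09, 7.59 and 9.76 FPM under ALL. Parp14 was at 19.8, 10.3, 7.24 and 10.2 FPM in Control and 17.8, 12.4, 9.49 and 11.1 FPM under HG + FFA. It was at 24.4, 12.2, 8.89 and 13.1 FPM under AII + NA and 9.7, 10.4 and 12.4 FPM under ALL. Gbp3 was at 8.45, 4.81, 3.44 and 3.5 FPM in Control and 11.8, 5.64, 2.95 and 5.76 FPM under HG + FFA. It was at 11.7, 5.11, 2.88 and 4.83 FPM under AII + NA and 5.11, 3.54 and 6.16 FPM under ALL. For these, too, set 5 was highest. Igtp, in Control highest in set 8, was at 10.2, 7.29, 6.34 and 12.3 FPM in Control and 10.9, 8.34, 4.37 and 7.57 FPM under HG + FFA. It was at 12.7, 8.07, 5.97 and 8.38 FPM under AII + NA and 7.49, 5.32 and 9.61 FPM under ALL. Iigp1 was at 10.1, 2.82, 1.6 and 3.07 FPM in Control and 9.53, 3.96, 1.39 and 2.3 FPM under HG + FFA. It was at 14.1, 3.69, 1.86 and 2.96 FPM under AII + NA and 3.07, 1.67 and 2.37 FPM under ALL. Ifit3, whose reads may be shared with Ifit3b, was at 81.1, 101, 182 and 236 FPM in Control and 105, 115, 208 and 154 FPM under HG + FFA. It was at 115, 110.1, 170.4 and 147 FPM under AII + NA and 114, 222 and 169 FPM under ALL. Here set 5 had the lowest Control level of the 4 sets.

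That genes were called in WT VSMC and not in KO VSMC does not show that the genotypes responded differently, so the difference was tested itself in a joint model. The effect of ALL in WT VSMC, less the effect in KO VSMC, had a median of -0.53 over 41 genes, with 38 below 0, and no gene was called in edgeR (0.0109% of all genes were) or in DESeq2. An unadjusted p under 0.05 was found for 17 of 41, beside 7.42% of all genes. The smallest FDR belonged to Ifit3b, with a difference of -1.07 ± 0.28 (SE, edgeR FDR = 0.244). For HG + FFA the median was -0.39 with 40 of 41 below 0 and for AII + NA -0.40 with 36 of 41 below 0. In both, 0 were called by either tool (0.0% of all genes by edgeR), and 10 and 9 had an unadjusted p under 0.05, beside 3.08% and 11.9% of all genes.

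Under Control conditions most interferon-stimulated genes had a lower mean level in KO VSMC than in WT VSMC, but none passed in edgeR. The log2FC was below 0 in 40 of 41, with a median of -1.25 beside -0.00 over all 16089 genes. In edgeR 0 were called (1 gene of all, 0.00622%) with a smallest FDR of 0.223, 32 had an unadjusted p under 0.05 beside 12.2% of all genes, and DESeq2 called 16, all lower (2.13% of all genes). Sp100 had a log2FC of -1.76 ± 0.38 (SE, edgeR FDR = 0.223), Gbp3 one of -2.40 ± 0.54 (SE, edgeR FDR = 0.237) and Irf7 one of -1.47 ± 0.37 (SE, edgeR FDR = 0.299). The mean log2(FPM + 0.1) over 39 genes was 4.87 ± 0.54 (SD, n = 4) in WT VSMC and 3.65 ± 0.47 (SD, n = 4) in KO VSMC. KO VSMC set 5, with the most Egfr RNA, had the highest mean (4.28) and came close to WT VSMC set 4 (4.30), while sets 6 to 8 stood at 3.27, 3.31 and 3.75. Without set 5, 13 genes were called in edgeR, all lower (1.56% of all genes were lower). Markers of other cells differed between the genotypes too. The median log2FC of KO VSMC against WT VSMC was -1.72 for 6 fibroblast, -1.34 for 7 endothelial and -1.14 for 9 leukocyte markers tested and 1.05 for 8 smooth muscle markers, and 0 of these were called. The fibroblast sum in Control was 6484 to 19496 FPM in WT VSMC. KO VSMC set 5 had a summed leukocyte marker level of 158 FPM in Control beside 43.7 to 55.8 FPM in sets 6 to 8, and 11531 FPM of fibroblast markers beside 2058 to 3075 FPM. The part of these cells was not tested.

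**Figure D4:**
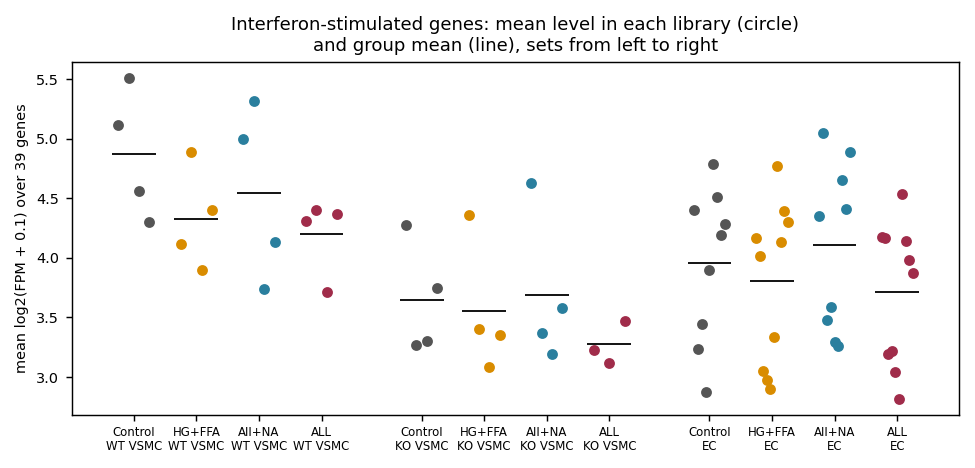
Circles give the mean log2(FPM + 0.1) over 39 interferon-stimulated genes in each library, with sets from left to right, and lines the group means. WT VSMC Control libraries run from 4.30 to 5.51 and KO VSMC Control libraries from 3.27 to 4.28, where the highest is set 5, and EC Control libraries run from 2.87 to 4.79.

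In EC, 7 of the 41 genes tested were called under ALL with the set as the block, and 2 with the animal as the block (0.781% of all genes). Of the 7, Isg15, Irf7, Irf9, Oasl2, Xaf1 and Dhx58 fell and Ifit2 rose, whereas 3.18% of all 17148 genes were called, 2.04% lower and 1.14% higher. The median log2FC was -0.25, with 36 of 41 below 0, and -0.01 over all genes. Over the libraries of a condition, the lowest, median and highest level of Isg15 was 3.61, 11.3 and 25.7 FPM in Control and 1.74, 5.48 and 17.6 FPM under HG + FFA. It was at 4.7, 7.98 and 22.1 FPM under AII + NA and 0.979, 5.5 and 15.8 FPM under ALL. Its log2FC was -1.10 ± 0.24 (SE, edgeR FDR = 0.00743) under ALL, with 8 of 9 sets lower, and -0.81 ± 0.24 (SE, edgeR FDR = 0.0482) under HG + FFA, with 7 of 9 lower. The ranges of the conditions overlapped, and the difference was seen within sets. Oasl2 was at 9.61, 25.8 and 45.2 FPM in Control and 5.49, 19 and 42 FPM under HG + FFA. It was at 8.91, 28.6 and 45.8 FPM under AII + NA and 7.3, 17.8 and 29.8 FPM under ALL. It was lower in 9 of 9 sets under both conditions, with log2FC of -0.64 ± 0.15 (SE, edgeR FDR = 0.0156) under ALL and -0.60 ± 0.15 (SE, edgeR FDR = 0.0217) under HG + FFA.

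Irf7 in EC was at 6.89, 11.3 and 24.9 FPM in Control and 3.02, 8.81 and 17.9 FPM under HG + FFA. It was at 5.3, 10.8 and 21 FPM under AII + NA and 3.73, 8.11 and 14.7 FPM under ALL. Irf9 was at 31.2, 42.8 and 61.7 FPM in Control and 21.8, 39.3 and 47.9 FPM under HG + FFA. It was at 30.9, 43 and 74 FPM under AII + NA and 28.2, 32.7 and 50.3 FPM under ALL. Both were lower under ALL in 8 of 9 sets, with log2FC of -0.66 ± 0.17 (SE, edgeR FDR = 0.0273) and -0.35 ± 0.09 (SE, edgeR FDR = 0.0233). Xaf1 was at 8.35, 17.6 and 23.3 FPM in Control and 5.69, 12.6 and 20.9 FPM under HG + FFA. It was at 7.93, 17.5 and 33 FPM under AII + NA and 5.01, 12.1 and 19.4 FPM under ALL. Dhx58 was at 3.46, 6.56 and 10.2 FPM in Control and 1.81, 5.12 and 7.87 FPM under HG + FFA. It was at 4.65, 6.64 and 13.5 FPM under AII + NA and 2.79, 3.99 and 6.66 FPM under ALL. Xaf1 was lower in 9 of 9 sets under ALL and Dhx58 in 8 of 9, with log2FC of -0.49 ± 0.13 (SE, edgeR FDR = 0.0245) and -0.65 ± 0.17 (SE, edgeR FDR = 0.0269). Ifit2 went the other way, at 11.6, 24.5 and 79.2 FPM in Control and 14.1, 44.4 and 88.8 FPM under HG + FFA. It was at 13.8, 31.8 and 61.5 FPM under AII + NA and 12.8, 47.5 and 86.8 FPM under ALL. It was higher in 9 of 9 sets under HG + FFA, with a log2FC of 0.43 ± 0.09 (SE, edgeR FDR = 0.00434), and in 8 of 9 under ALL, with 0.41 ± 0.09 (SE, edgeR FDR = 0.00743). In its family, Ifit1 had -0.66, Ifit3 0.11 and Ifit3b -0.08 under ALL and did not pass.

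**Figure D5:**
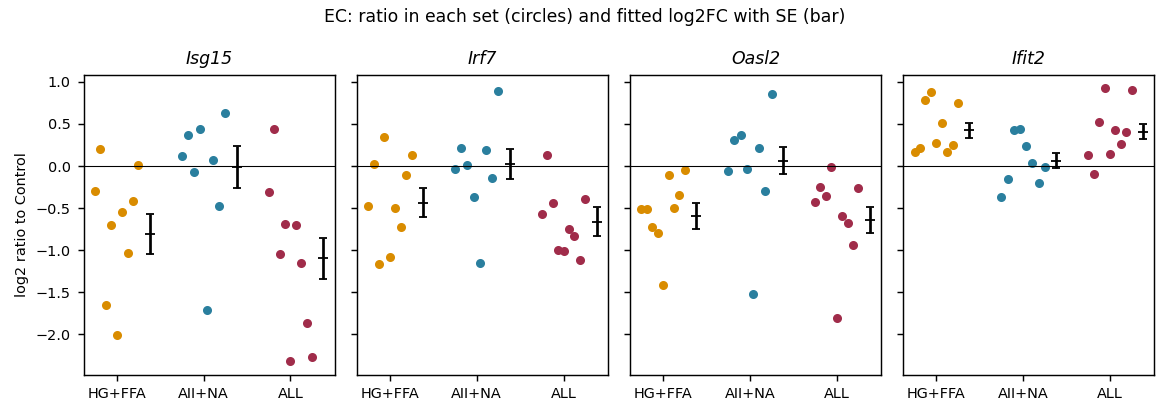
For 4 interferon-stimulated genes in EC, circles give the log2 ratio of each set to its own Control library under each condition, and bars the fitted log2FC with its SE. Isg15, Irf7 and Oasl2 lie mostly below 0 under HG + FFA and ALL and scatter around 0 under AII + NA, whereas Ifit2 lies above 0 in 9 of 9 sets under HG + FFA.

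HG + FFA alone changed 3 of 41 genes in EC, Isg15 and Oasl2 lower and Ifit2 higher (1.88% of all genes fell and 1.64% rose), with a median of -0.20. Under AII + NA 36 of 41 log2FC were above 0 with a median of 0.18, but 0 were called in edgeR or DESeq2 (0.0% of all genes in edgeR) and 7 had an unadjusted p under 0.05, all higher, beside 6.67% of all genes. The calls in EC depended on which sets were kept. Without sets 9, 11 and 13, 5 genes were called under ALL and 1 under HG + FFA. Without sets 15 and 16, which have little Egfr RNA, these numbers were 2 and 1, with the animal as the block 2 and 1, and without any block 0 and 0. The study's DEG rule kept 4 under ALL and 1 under HG + FFA, beside 110 and 111 of all 17148 genes. For the fits with sets left out, the shares of all genes are not given here. Their counts are no result about these genes alone. Among other markers, Emcn rose and Col3a1 fell in EC under both conditions, and their part in the result was not tested.

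The other named genes were not called in EC. The lowest, median and highest level of Usp18 was 2.43, 7.05 and 20.9 FPM in Control and 0.826, 5.44 and 16 FPM under HG + FFA. It was at 1.82, 9.24 and 18.9 FPM under AII + NA and 0, 5.44 and 13.5 FPM under ALL. Ifit1 was at 5.99, 18 and 55.4 FPM in Control and 2.06, 14.8 and 51.1 FPM under HG + FFA. It was at 2.67, 44.4 and 70.3 FPM under AII + NA and 2.55, 18 and 39.2 FPM under ALL. Ifit3 was at 15.3, 79.5 and 163 FPM in Control and 22.7, 102 and 170.2 FPM under HG + FFA. It was at 19.7, 86.3 and 182 FPM under AII + NA and 17.4, 96.4 and 159.7 FPM under ALL. Median levels of these 3 genes under ALL were within the range of the Control libraries. Stat2 was at 24.5, 43.5 and 63.3 FPM in Control and 22.8, 39.8 and 59.2 FPM under HG + FFA. It was at 27.3, 52.1 and 63 FPM under AII + NA and 24.3, 42.3 and 48.4 FPM under ALL. Bst2 was at 60.5, 120.0 and 239 FPM in Control and 62.3, 112 and 176 FPM under HG + FFA. It was at 50.6, 97.4 and 168 FPM under AII + NA and 59.9, 108 and 234 FPM under ALL. Lgals3bp was at 51.4, 162 and 292 FPM in Control and 39, 191 and 254 FPM under HG + FFA. It was at 50, 194 and 251 FPM under AII + NA and 49.7, 155 and 263 FPM under ALL. For these genes, too, the conditions overlapped. Oas2 was at 0, 1.03 and 5.53 FPM in Control and 0, 0.802 and 6.09 FPM under HG + FFA. It was at 0.14, 3.29 and 12.9 FPM under AII + NA and 0, 0.854 and 1.68 FPM under ALL. Mx2 was at 0.973, 2.71 and 4.45 FPM in Control and 0.32, 2.39 and 3.17 FPM under HG + FFA. It was at 1.32, 3.5 and 7.08 FPM under AII + NA and 0, 1.29 and 4.03 FPM under ALL. Ifi44 was at 0, 5.02 and 20.3 FPM in Control and 0.033, 4.16 and 27 FPM under HG + FFA. It was at 0.404, 4.86 and 32.8 FPM under AII + NA and 0.0615, 3.2 and 17.8 FPM under ALL. Each of these 3 genes was at 0 in at least 1 EC library. Rtp4 was at 2.56, 14.1 and 24.2 FPM in Control and 2.41, 8.55 and 18.6 FPM under HG + FFA. It was at 3.96, 10.9 and 26 FPM under AII + NA and 4.55, 6.91 and 17.8 FPM under ALL. Ifi27 was at 97.3, 114 and 233 FPM in Control and 77.2, 116 and 169 FPM under HG + FFA. It was at 82, 121 and 181 FPM under AII + NA and 94.6, 117 and 155 FPM under ALL. Ifih1 was at 8.35, 27.2 and 31.2 FPM in Control and 8.99, 25.3 and 32.4 FPM under HG + FFA. It was at 9.75, 27.1 and 50.3 FPM under AII + NA and 11.2, 23.2 and 31.7 FPM under ALL. Its Control median lay within the range of the WT VSMC Control libraries. Parp14 was at 11, 19.6 and 41.5 FPM in Control and 12.5, 24.5 and 43.7 FPM under HG + FFA. It was at 13.8, 24.8 and 53.7 FPM under AII + NA and 13.2, 23.6 and 36.6 FPM under ALL. Gbp3 was at 0.881, 8.11 and 17.9 FPM in Control and 2.54, 8.13 and 20.5 FPM under HG + FFA. It was at 3.75, 11.6 and 32.2 FPM under AII + NA and 2.09, 6.13 and 17.1 FPM under ALL. Igtp was at 4.49, 8.97 and 17.4 FPM in Control and 2.51, 8.87 and 10.8 FPM under HG + FFA. It was at 5.49, 10.1 and 13 FPM under AII + NA and 3.82, 8.54 and 11.3 FPM under ALL. Iigp1 was at 1.09, 9.51 and 16.9 FPM in Control and 0.694, 7.3 and 18.8 FPM under HG + FFA. It was at 1.61, 10.8 and 25.6 FPM under AII + NA and 1.84, 7.09 and 16.3 FPM under ALL. In each of these the conditions overlapped.

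Between the cell types under Control conditions, 10 of 42 genes were lower in EC (8 animals) than in WT VSMC (4 animals) and none higher, beside 5.7% of all 16958 genes that were lower, with a median log2FC of -0.89 over the 42. The 10 were Gbp2, Zbp1, Mx1, Ifi35, Irf7, Stat2, Dhx58, Lgals3bp, Isg15 and Ifi27. Gbp2, a guanylate-binding protein, had a log2FC of -1.90 ± 0.32 (SE, edgeR FDR = 0.00467), Zbp1 one of -3.50 ± 0.64 (SE, edgeR FDR = 0.00672) and Irf7 one of -1.57 ± 0.35 (SE, edgeR FDR = 0.0153). Other markers moved with this: the median log2FC was -2.84 for 9 leukocyte markers tested, of which Fcer1g was lower, and -1.11 for 6 fibroblast markers, of which Dpt was lower, while 4 of 10 endothelial markers were higher (Vwf, Emcn, Pecam1 and Egfl7). Their part in the result was not tested. EC set 9 and WT VSMC set 1 came from the same animal, which the fit does not take into account. VSMC and EC carry different batch labels, so cell type and batch cannot be told apart. The count was 5 without WT VSMC set 1 and 2 without set 2, the sets with the highest Control levels, and 12, of which 10 lower, without EC sets 9, 11 and 13, a fit that holds no shared animal and called 30.8% of all genes.

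The rest of the interferon pathway was followed by lists. Of 10 interferon genes, none passed the count filter in any cell type, and the largest count in any of the 69 libraries was 5, for Ifne. Ifnb1 had at most 2 reads and was at 0 in 14 of 16 WT VSMC, 15 of 15 KO VSMC and 35 of 38 EC libraries. Of 11 receptor and JAK-STAT genes, 1 rose in WT VSMC under ALL (Ifngr2, a subunit of the receptor of interferon gamma, log2FC 0.38, edgeR FDR = 0.0286) and 0 fell. Of 17 sensing and induction genes tested, 1 rose (Myd88, an adaptor of Toll-like receptors, log2FC 0.71, edgeR FDR = 0.00212), and of 8 negative regulators 1 rose (Trim24, log2FC 0.42, edgeR FDR = 0.00529). Of all genes 3.92% rose, and the medians of these lists were, in this order, -0.02, -0.03 and -0.08. Of 12 antigen presentation genes 2 fell, with a median of -0.22 over the list and 3.53% of all genes lower, the immunoproteasome subunits Psmb9 (log2FC -0.79, edgeR FDR = 0.0301) and Psmb8 (log2FC -0.71, edgeR FDR = 0.0337). Of 37 further interferon-induced genes tested 11 fell and 0 rose, with a median of -0.45 beside -0.01 over all genes. They were led by Ube2l6, the conjugating enzyme of ISG15 (log2FC -0.68, edgeR FDR = 0.00427), the DNA-binding Ifi207 (log2FC -0.93, edgeR FDR = 0.00908) and Ifi203 (log2FC -1.09, edgeR FDR = 0.00939), Slfn8 (log2FC -1.01, edgeR FDR = 0.0117) and the GTPase Tgtp2 (log2FC -1.19, edgeR FDR = 0.0136).

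In KO VSMC no gene of these lists was called under any condition. Of all 17538 genes tested there, 77 were called under HG + FFA, 0 under AII + NA and 70 under ALL. In EC, 4 of 12 antigen presentation genes fell under HG + FFA, where 1.88% of all genes fell. They were Psmb9 (log2FC -0.87, edgeR FDR = 0.000849), Tap1 (log2FC -0.44, edgeR FDR = 0.00297), Psmb8 (log2FC -0.52, edgeR FDR = 0.00794) and Tapbp (log2FC -0.24, edgeR FDR = 0.0239). Of the exon bases of Tapbp, 52.8% are shared with other annotated genes. Psmb9 and Tap1 overlap each other, with 19.6% and 12.4% of their exon bases shared. Tap1, a subunit of the peptide transporter, also fell under ALL (log2FC -0.34, edgeR FDR = 0.0234). Of 39 further interferon-induced genes tested, 4 fell under each of the conditions and 0 rose, where 1.88% of all genes fell under HG + FFA and 2.04% under ALL. They were Ube2l6, Oas1b and Tor3a under both, Trafd1 under HG + FFA and Ifi204 under ALL. Ube2l6 had log2FC of -0.42 (edgeR FDR = 0.015) and -0.43 (edgeR FDR = 0.0126). Tlr4 (log2FC 0.36, edgeR FDR = 0.021) and Trim24 (log2FC 0.29, edgeR FDR = 0.0422) rose under HG + FFA, and Mavs, the adaptor of the RNA sensors, fell under ALL (log2FC -0.21, edgeR FDR = 0.0354).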

How the data were processed

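Poly(A) RNA-Seq libraries of WT VSMC, KO VSMC and EC were analysed. The authors aligned the reads to mm39 with HISAT2 2.1.0, counted reads over exons with featureCounts, including reads with several alignments, and deposited raw counts per gene, not normalized. The setting for strand was not given in the sources used here. Identifiers were matched to the GENCODE annotation of GRCm39, and 0.0241% of the counts were on other identifiers. Genes passed edgeR's filterByExpr. Libraries were normalized by TMM, and edgeR's quasi-likelihood test with the condition and the set as a block was fitted for each cell type. The study's methods pair libraries by animal, which is the same for VSMC but not for EC, where sets 17 and 18 share an animal and the animal as the block was run as an alternative. Adjustment was by Benjamini-Hochberg over all genes tested, with a threshold of 0.05. Genotypes were compared in a joint model, and the 2 EC sets of one animal were summed for the comparison of cell types. R 4.3.3, edgeR 4.0.16, DESeq2 1.42.0, Python 3.11.15, pysam 0.24.0, Biopython 1.88 and matplotlib 3.10.9 were used, and the models were tested on simulated counts. FPM over all libraries came from 1 joint TMM normalization, with 0.1 FPM added before single libraries were put on the log2 scale.

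The sets pair the libraries, because each set is the cells of 1 animal. Deviations from the condition mean correlated at 0.442 or more within every set pair of WT VSMC, at 0.514 in KO VSMC and at 0.480 in EC, with means between sets of -0.25, -0.25 and -0.09. The smallest chi-square per gene between libraries of one group was 41.6, so none was a duplicate. Replicates are separate sets, which in EC are not all separate animals. With the set as a block, differences in level between sets are taken out. The p-values of the stressor comparisons then measure the variation left after set and condition are fitted. Those of the genotypes or cell types under Control conditions measure the spread between the sets or animals of a group.

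The 42 genes, the pathway and marker lists and the tests were chosen with earlier results of these data known. All 42 genes are accounted for by role, with values per library in VSMC, and the lowest, median and highest in EC, for 22 genes and Egfr. Up to 5 genes per pathway list with the smallest p among those with an FDR under 0.05 are named, and the 8 genes most like the mean of the group. Ifit2, also given per library, and Ifit3b, Mx1, Sp100, Cmpk2 and Gbp2 are given more room after their values were seen. Alternatives were DESeq2, edgeR run with the size factors of DESeq2, leaving out the count filter or the block, only the 2 groups compared, the study's DEG rule, each VSMC set left out and, for EC, the animal as the block, complete sets and left-out sets. Leaving out EC sets 9, 11 and 13 was added after seeing their markers. Promoters were read from the GRCm39 genome.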

Additional observations from a re-analysis of the deposited data

Results flagged for a closer look

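In 132 groups of 4 to 10 libraries, covering 11 of the genes and their mean, 5 held a library far from the others of its group by Dixon's criterion, where chance gives about 1 in 20. Usp18 was at 0 FPM in the EC ALL library of set 14, where 3 reads would be 0.125 FPM, and at up to 13.5 FPM in the other EC ALL libraries. Ifit2 stood at 29.3 FPM in WT VSMC AII + NA set 3, beside 42.2 to 42.9 FPM in the other sets. Ifit3b was at 60.3 FPM in WT VSMC HG + FFA set 2, beside 22.6 to 24.7 FPM. Dhx58 was at 10.7 FPM in KO VSMC Control set 5, beside 4.63 to 4.87 FPM. The mean log2(FPM + 0.1) over the genes was 3.71 in WT VSMC ALL set 3, beside 4.31 to 4.40. The causes were not tested.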

How the results depend on the processing

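Of 177 recalculated counts of called genes, 135 stayed within 1.5 times of the count reported and 42 did not, and the cause was not tested. DESeq2 called 5 genes for HG + FFA in WT VSMC, 1 for ALL against AII + NA and 1 for HG + FFA against AII + NA. In these comparisons it called 294, 541 and 883 of all 16905 genes. It called 5 for HG + FFA in EC, beside 969 of all 17148 genes, and 16 for KO VSMC against WT VSMC, beside 343 of all 16089. The study's DEG rule gave 1 for HG + FFA and 4 for ALL in EC, beside 111 and 110 of all 17148 genes. Without the count filter more were called: in WT VSMC 26 for HG + FFA, 13 for AII + NA, 35 for ALL, 3 for ALL against HG + FFA, 22 for ALL against AII + NA, 12 for HG + FFA against AII + NA and 1 for the departure from additivity, in KO VSMC 1 for ALL, in EC 8 for HG + FFA and 12 for ALL, and for the difference between genotypes 7 (HG + FFA), 3 (AII + NA) and 12 (ALL). With only the 2 groups compared, 7 were called for HG + FFA, 1 for AII + NA in WT VSMC and 2 for ALL in EC. Leaving out the filter or the other groups changes the fit of every gene, and the shares of all genes are not given here. These counts show how the calls move with the processing and are no result about these genes alone.

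Without the set as a replicate block, 0 were called for ALL in WT VSMC and 0 for HG + FFA and 0 for ALL in EC, and the pairing moved no other count, while the median log2FC of the genes for ALL in KO VSMC was -0.38 without it. Leaving out each VSMC set in turn gave 0 to 22 for ALL and 0 to 12 for HG + FFA in WT VSMC, 0 to 3 for ALL against AII + NA, 0 to 1 for HG + FFA against AII + NA, 0 to 2 for HG + FFA in KO VSMC (2 without set 5), 0 to 13 for KO VSMC against WT VSMC and 2 to 9 for EC against WT VSMC. In EC, the animal as the block gave 1 for HG + FFA and 2 for ALL, sets 15 and 16 left out gave 1 and 2, and complete sets gave 2 for ALL. Leaving out sets 9, 11 and 13, chosen after seeing the data, gave 1 for HG + FFA. Except where stated above, the shares of all genes in these fits are not given here. The counts describe only how the calls depend on the sets and the block. No gene that was called in either fit changed direction under any alternative. With 4 animals per genotype, Mx1, Oas3 and Oasl1 rest on few reads.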

Other observations

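Outside the lists, the genes whose level, centred within each set, was most like the mean of the 41 interferon-stimulated genes over the 16 WT VSMC libraries were Iigp1c, Irgm2, Gm12250, Ifi211, Gm20559, Trim12c, Zfp937 and Aida, with Pearson r between 0.893 and 0.953. The libraries share animals and normalization, and these values are a description. Reads with several alignments were counted, and how far these genes share reads with their relatives was not tested. Iigp1c and Irgm2 are relatives of the interferon-inducible GTPases, and their log2FC under ALL were -1.31 (edgeR FDR = 0.0343) and -0.60 (edgeR FDR = 0.0421). Ifi211 belongs to the family of Ifi203 and Ifi207 and had a log2FC of -0.93 (edgeR FDR = 0.0105). Aida had the highest level of the 8, with a mean of 137 FPM, and a log2FC of -0.30 (edgeR FDR = 0.0155). The long non-coding RNA Gm20559 had a log2FC of -0.49 (edgeR FDR = 0.0198). Trim12c, Zfp937 and the pseudogene Gm12250 did not pass, with log2FC of -0.39, -0.34 and -1.40.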
